A study of Mus musculus with 7 samples.

Results

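The RUNX family holds the transcription factors Runx1, Runx2 and Runx3, which bind DNA through a shared Runt domain, and Cbfb encodes the common partner subunit, which does not touch DNA but raises the affinity of each RUNX protein for its sites. Accessible chromatin at these 4 genes was followed through early B-cell development in mouse bone marrow. The members were all ATAC-seq peaks that overlapped the 4 gene bodies or the 30 kb on either side. This window held 678 of the 647973 deposited peaks, and merging peaks that overlapped between libraries gave 179 regions of 145247 in all. Of these, 40 lay at Runx1 (ENSMUSG00000022952, chr16:92601466-92826149, minus strand), 105 at Runx2 (ENSMUSG00000039153, chr17:44495987-44814797, minus strand), 25 at Runx3 (ENSMUSG00000070691, chr4:135120652-135177990, plus strand) and 9 at Cbfb (ENSMUSG00000031885, chr8:105170674-105217989, plus strand). Coordinates are those of the mm10 (GRCm38) build, and genes are those of GENCODE M21.

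ATAC-seq reads out DNA that an enzyme releases from open chromatin, and a peak marks a stretch with more fragments than the background. There were 7 libraries in 7 groups, 1 library each, from cell populations sorted from bone marrow of male and female mice aged 6 to 18 weeks. WT pre-proB, WT proB and WT preB cells, 3 successive stages of the B lineage, came from Ergfl/fl mice, which carry floxed alleles of the ETS factor gene Erg and no Cre. Erg KO pre-proB cells came from Rag1CreT/+;Ergdelta/delta mice, in which the Rag1-driven recombinase acts in lymphoid progenitors and their progeny. Rescue pre-proB, proB and preB cells carried the same deletion plus IgHVH10tar, a heavy chain allele that is already rearranged. All animals therefore had modified Erg alleles, and the number of animals behind a library was not stated in any source at hand. The peak lists do not show the deleted part of Erg, so the deletion was not checked here. The stage of each Rescue library was taken from its title, and for all 3 of them the source name gave another stage.

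With 1 library per group there is no spread between animals and no test, so every difference below is between libraries. The level of a region is the deposited fold of its highest summit, the fragments piled up there over the library's background, and the 95% intervals in brackets are Poisson intervals of the summit pileup, which cover counting error only. The background pileup, a measure of depth, ranged from 3.49 to 4.60 fragments, and the weakest called summit held 10 to 12 fragments, so a region without a peak is one below that limit and is not shown to be closed. Of 10 B-lineage marker genes, all 10 had a promoter peak in the WT and Rescue libraries of the later stages, against 9 at WT pre-proB, 5 with Erg KO and 6 at Rescue pre-proB. Of all coding genes, 63.3%, 64.2% and 64.5% had one in WT, Erg KO and Rescue pre-proB, and 61.4% to 65.5% in single libraries.

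RUNX factors are best known in blood for Runx1, which is needed for definitive stem cells and for the earliest B-cell stages, for Runx3, which acts in cytotoxic T cells and innate lymphocytes, and for Runx2, the master regulator of bone formation that is also used by plasmacytoid dendritic cells. Each RUNX gene is read from a distal promoter and from a proximal promoter further inside the gene, which give proteins that differ at the N terminus.

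The distal promoters shared a sequence with the family's own binding pattern, shown here because these promoters behaved differently from each other in the libraries. In RefSeq promoter windows, which run from 250 bases before to 50 after a start site (build GRCm38.p6), the pattern TGTGGTT was searched on both strands. It was present in the distal windows of Runx1, Runx2 and Runx3, absent from the proximal windows of Runx1 and Runx3 and from that of Cbfb, and found in 5.27% of all 32851 windows. In each distal window it occurred as a pair 1 base apart, and 10 of the 32851 windows (0.0304%) held such a pair with at most 8 bases between the copies. The search for pairs was added after the first matches had been seen. The 3 pairs are written 5′ to 3′ on the strand of the gene, with the RUNX pattern, here as its reverse complement, in capitals.
Runx1, 28 to 42 bases after the RefSeq start site: cataaacAACCACAgAACCACAagttggg
Runx2, 23 to 37 bases after the RefSeq start site: cacaaacAACCACAgAACCACAagtgcgg
Runx3, 135 to 121 bases before the RefSeq start site: gtccctcAACCACAgAACCACAaggccag
The Runx1 and Runx2 pairs lay in an unbroken run of 22 identical bases, and each shared 18 with the Runx3 pair. They stand at chr16:92826026-92826054, chr17:44814584-44814612 and chr4:135120503-135120531.

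Among the promoters of the 4 genes, the distal promoter of Runx3 changed most between the WT stages that had a peak. Its peak, at chr4:135119766-135120867, had a level of 87.2 (79.4 to 95.7) in WT pre-proB, 42.6 (37.3 to 48.5) in WT proB and 11.2 (8.35 to 14.7) in WT preB. The Rescue libraries gave 96.0 (88.0 to 104), 46.1 (40.1 to 52.8) and 16.1 (12.7 to 20.1) at the same stages, and Erg KO pre-proB gave 89.8 (82.0 to 98.1). Within each stage the intervals of WT and Rescue overlapped, while the stages did not. From WT proB to WT preB the level was 3.96 times lower after centring on the median of all regions, which counted as a 2-fold difference, as did 9.34% of all regions with a peak in both libraries. The antisense gene Gm16225 starts inside this region, and ATAC-seq does not tell the strands apart. The 250 bases before the GENCODE start site of Runx3 (chr4:135120402-135120651, plus strand, RefSeq genome of the GRCm38 build) hold the pair. They hold no match to CAGGAAG or CCCNNGGG, the letters used here for ETS factors and EBF. Only these exact letters were searched, on both strands, and not other spellings of such sites.
Runx3 distal promoter: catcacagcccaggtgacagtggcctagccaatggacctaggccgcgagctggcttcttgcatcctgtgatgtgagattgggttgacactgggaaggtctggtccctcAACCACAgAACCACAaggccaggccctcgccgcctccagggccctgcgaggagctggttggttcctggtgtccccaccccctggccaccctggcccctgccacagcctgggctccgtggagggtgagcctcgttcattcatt

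The proximal promoter of Runx3, 31.7 kb into the gene at chr4:135151889-135154638, was weaker and nearly level. It measured 14.7, 12.6 and 13.6 in WT pre-proB, proB and preB, 16.8, 13.8 and 15.3 at the Rescue stages, and 17.6 with Erg KO, and the intervals of all 7 overlapped, from 9.77 at the lowest bound to 21.5 at the highest. The fall with stage was thus seen at the distal promoter and not at the proximal one, with no test of the difference between them.

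Both Runx1 promoters had a peak in every library, and both were highest at preB in WT and in Rescue. The distal promoter (chr16:92824465-92827069) measured 43.0 (37.6 to 49.1), 47.1 (41.5 to 53.2) and 62.0 (55.0 to 69.7) in WT pre-proB, proB and preB, 43.1, 52.3 and 59.2 at the Rescue stages, and 44.2 with Erg KO. The proximal promoter (chr16:92696388-92699236) measured 25.0 (20.9 to 29.7), 40.8 (35.6 to 46.5) and 52.2 (45.8 to 59.2) in WT, 26.9 in Erg KO, and 29.5, 37.4 and 52.4 in Rescue. The proximal promoter was below the distal one in all 7 libraries. Neither differed by 2-fold in any of the 7 comparisons. These did not set WT pre-proB against WT preB, between which the proximal promoter went from 25.0 to 52.2 and the intervals did not meet.

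At Runx2 the distal promoter was weak and differed by stage, while the main region of the proximal one was steady. A peak at the distal promoter (chr17:44814491-44814920) was present only in the 3 pre-proB libraries, at 5.62 (3.80 to 8.04) in WT, 5.68 (3.89 to 8.03) in Erg KO and 6.97 (4.98 to 9.50) in Rescue, and none of the 4 proB and preB libraries had one. The start of the gene lies within the neighbouring gene Supt3, so this peak cannot be assigned to 1 of the 2 genes. The main proximal region (chr17:44733532-44736957) measured 16.9, 17.7 and 16.2 in the WT stages, 19.4 in Erg KO, and 25.2, 22.5 and 20.0 in Rescue. Just upstream of it, 76.7 kb into the gene, lay the region at chr17:44737170-44738911. It is within 1000 bp of a proximal start site, so it also counts as a promoter region, and it differed by stage. It measured 14.7, 14.3 and 14.1 in WT, Erg KO and Rescue pre-proB, and 5.17 and 6.90 in WT and Rescue proB. In Rescue preB it measured 5.78, and WT preB had no peak there.

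The Cbfb promoter (chr8:105169952-105172429) was among the strongest regions of the 4 loci in every library. It measured 86.5 (78.6 to 94.9), 66.6 (60.0 to 73.9) and 71.9 (64.3 to 80.1) in the WT stages, 104, 77.1 and 76.3 in Rescue, and 93.6 with Erg KO. Counted over all 16 annotated start sites of the 4 genes, 16 had a peak within 1000 bp in each pre-proB library and 12 in each of the others, and the 4 missing sites were those of the Runx2 distal promoter. These 4 sites share 1 weak peak, so the difference rests on that peak alone. With the 38232 best peaks of each list, 12 of the 16 had a peak in every library. Of all coding genes, 61.4% to 65.5% had a promoter peak in single libraries, and the share over all start sites was not counted.

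**Figure D1:**
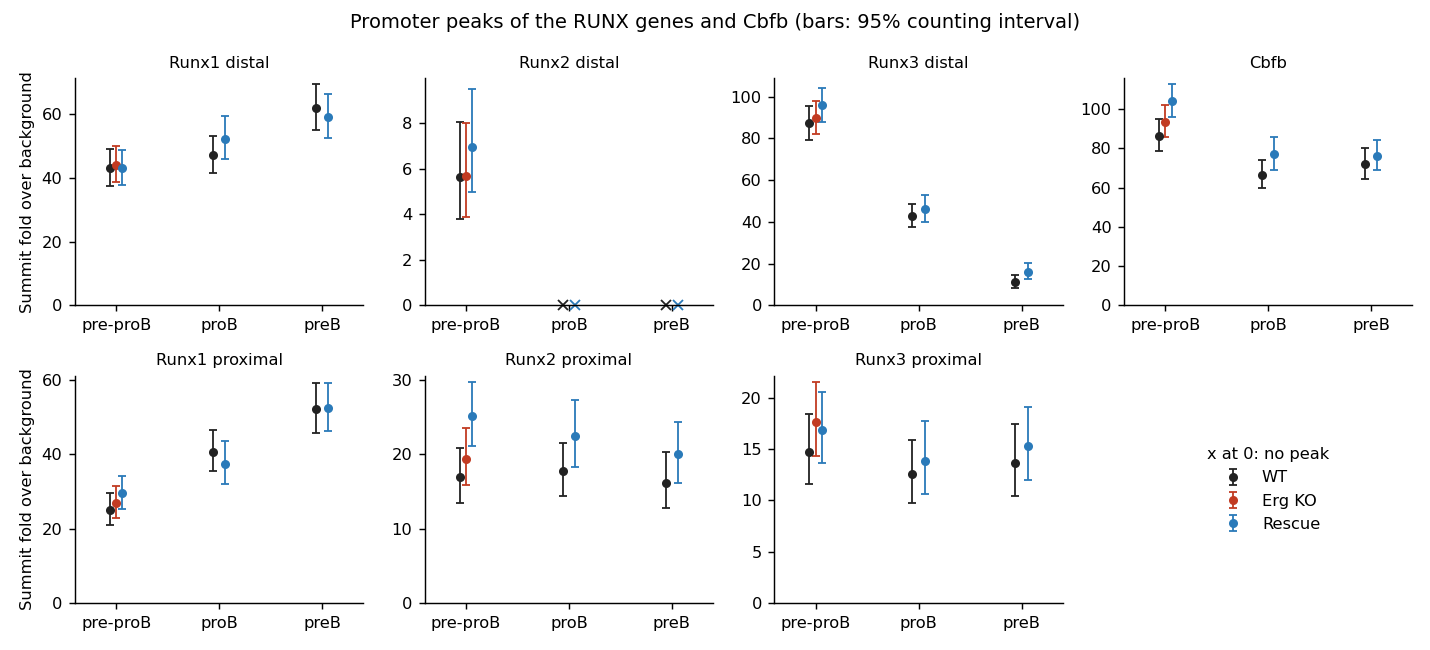
Level (summit fold over background, vertical axis from 0) of the promoter peaks by stage, with WT in black, Erg KO in red and Rescue in blue, bars for the 95% counting interval and a cross at 0 where there was no peak. The Runx3 distal promoter falls from 87.2 to 11.2 through the WT stages, both Runx1 promoters are highest at preB, and the Runx2 distal promoter has a peak in the 3 pre-proB libraries alone. For the Runx2 proximal promoter only its main region is shown.

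Runx2 differed from the other loci in the number of its peaks. The WT list held 78 peaks there at pre-proB, 20 at proB and 10 at preB. The Rescue lists held 71, 21 and 15 at these stages, and the Erg KO list held 98. The other loci stayed between 24 and 30 peaks at Runx1, 14 and 20 at Runx3, and 6 and 8 at Cbfb. The fall of 58 from WT pre-proB to WT proB was the largest of 21911 coding genes counted with the same 30 kb flanks, for which the median difference was 0, and the fall of 50 between the same Rescue stages was also the largest. Runx2 has a long window, and per 100 kb these falls ranked 12 and 19, and 860 and 1266 among peaks of −log10 q of 10 or more and 939 and 2808 with lists of equal length. Of the 105 regions, 79 (75.2%) had a peak in at least 1 pre-proB library and in no later one, against 22.5% of all regions, and 31 (29.5%) had one in all 3 pre-proB libraries and no later one, against 11.5%. The regions were mostly inside the gene, with 93 of 105 in introns.

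Most of these pre-proB peaks were weak. The median level at Runx2 was 3.97 in WT pre-proB, 3.94 in Erg KO and 3.93 in Rescue pre-proB, against a median of 8.92 over all peaks of WT pre-proB, and 39.7% of the WT pre-proB peaks at Runx2 reached a −log10 q of 10, compared with 80.0% at Runx1 and 100% at Runx3. With peaks of −log10 q of 10 or more the numbers were 31, 13 and 8 in the WT stages, 33 in Erg KO, and 31, 13 and 12 in Rescue, and the WT fall, not scaled to length, ranked 6. When each list was cut to the 76465 best peaks, the length of the shortest, WT pre-proB had 33 and WT proB 17, and with the 38232 best peaks both had 9. The excess at pre-proB therefore lay among the weaker peaks and was not seen among the strongest.

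**Figure D2:**
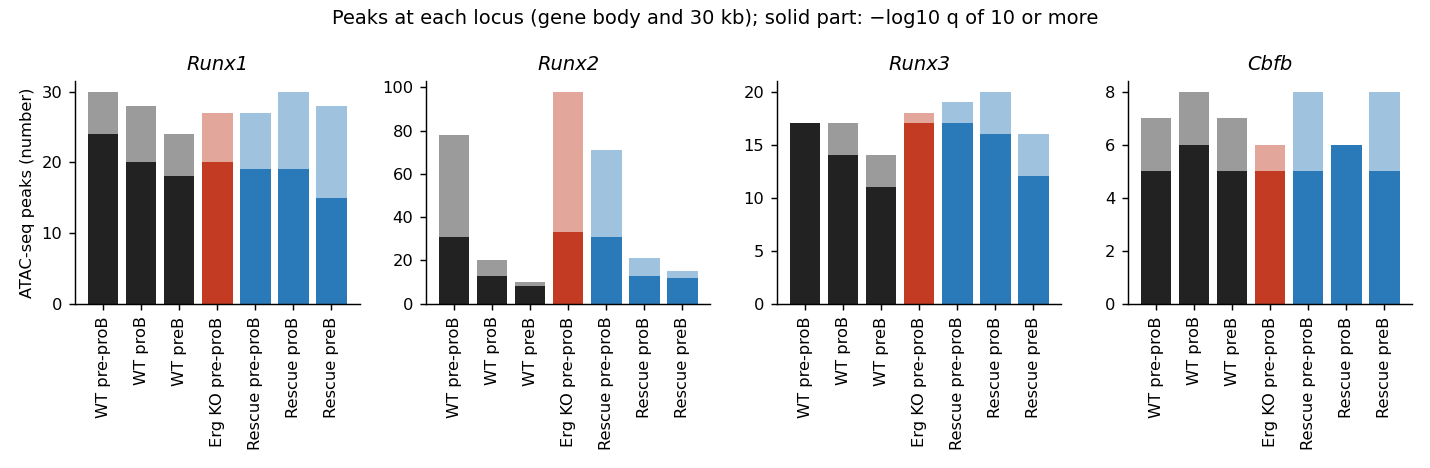
Number of peaks at each locus by library (vertical axis from 0), with the solid part of a bar for peaks of −log10 q of 10 or more and the pale part for weaker ones. Runx2 has 71 to 98 peaks in the pre-proB libraries, most of them weak, and 10 to 21 in the others, while Runx1 stays between 24 and 30, Runx3 between 14 and 20 and Cbfb between 6 and 8.

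A strong pre-proB region at Runx2 lay 212.8 kb into the gene (chr17:44599983-44603671), with pre-proB levels of 20.0 (16.3 to 24.2) in WT, 18.2 (14.9 to 22.1) in Rescue and 29.1 (24.8 to 34.0) with Erg KO. Rescue proB had a weak peak there (4.23), and WT proB and both preB libraries had none. It was picked after its values were seen. Some intronic regions went the other way, and of 13 Runx2 regions with a peak in both WT pre-proB and WT proB, 5 were at least 2-fold higher in WT proB and 2 were lower, where 14.8% and 15.0% of all regions were. The region with the highest mean level at the locus, 160.0 kb into the gene in intron 6 (chr17:44653238-44655453), measured 37.2 (32.2 to 42.9), 84.2 (76.6 to 92.3) and 52.8 (46.4 to 59.9) in WT pre-proB, proB and preB. It measured 33.7 in Erg KO, and 28.1, 42.1 (36.3 to 48.5) and 49.7 in the Rescue stages. WT proB stood above every other library, and Rescue proB was 2.02 times lower. Its summit window (chr17:44654723-44654922, minus strand) is shown with its single match, the ETS pattern CAGGAAG as its reverse complement, in capitals.
Runx2 intron 6 region: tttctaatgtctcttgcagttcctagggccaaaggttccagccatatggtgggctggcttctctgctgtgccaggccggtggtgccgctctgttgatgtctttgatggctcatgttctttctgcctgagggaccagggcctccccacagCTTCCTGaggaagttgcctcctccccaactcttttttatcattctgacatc
The Supt3 promoter, which lies inside Runx2 at 37.7 kb (chr17:44776595-44777990), changed little, from 34.8 in Erg KO pre-proB to 52.2 in Rescue preB.

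**Figure D3:**
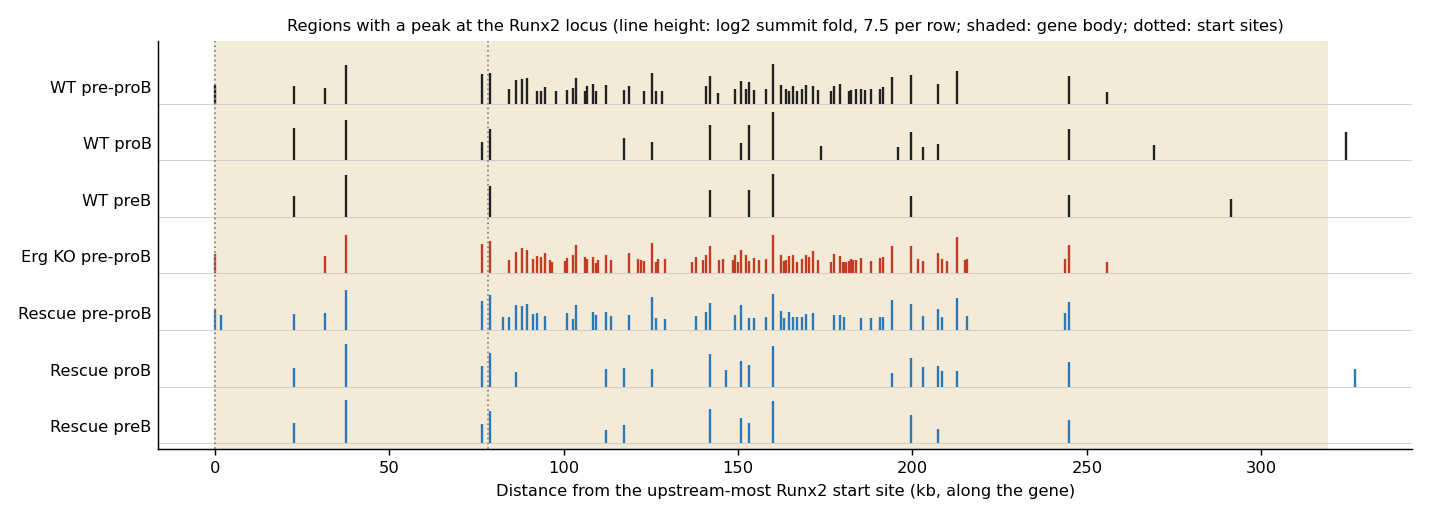
Regions with a peak at the Runx2 locus by library, at their distance in kb from the upstream-most start site, with line height proportional to the log2 level, the gene body shaded and the 2 promoters dotted. The pre-proB rows carry many short lines downstream of the proximal promoter that are missing from the proB and preB rows, and the tallest line of the map, that of WT proB at 160.0 kb, has a counterpart in all 7 rows.

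At Runx1 the regions outside the promoters differed more between stages than the promoters did. Of 18 Runx1 regions with a peak in both WT pre-proB and WT proB, 8 were at least 2-fold higher in WT proB and 1 was lower, against 14.8% higher and 15.0% lower over all regions. The region 24.3 kb downstream of the distal start site (chr16:92800594-92802343), close to where an enhancer active in blood stem cells has been described, rose from 21.5 (17.7 to 25.9) in WT pre-proB to 52.2 (46.3 to 58.7) in WT proB and measured 34.2 in WT preB, 21.8 in Erg KO, and 24.8, 35.0 and 36.9 in Rescue. Its 200-base summit window held no match to the RUNX, ETS or EBF patterns.
A larger difference was found 99.2 kb into the gene (chr16:92726503-92727720, intron 2). The level there was 5.82 (3.96 to 8.27) in WT pre-proB, 39.5 (34.4 to 45.2) in WT proB and 10.5 (7.79 to 13.9) in WT preB. Neither Erg KO nor Rescue pre-proB had a peak, and Rescue proB and preB measured 9.58 (6.96 to 12.9) and 3.92 (2.41 to 6.08). Its summit window (chr16:92726886-92727085, minus strand) holds a single RUNX pattern, in capitals as its reverse complement.
Runx1 intron 2 region: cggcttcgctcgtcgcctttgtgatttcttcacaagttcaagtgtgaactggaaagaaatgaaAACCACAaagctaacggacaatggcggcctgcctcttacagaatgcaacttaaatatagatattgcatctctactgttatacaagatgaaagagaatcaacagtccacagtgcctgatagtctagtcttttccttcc

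The same order, with WT proB highest, was found at 3 further intronic Runx1 regions. At 205.2 kb (chr16:92620606-92622646) the level was 10.3, 41.9 and 8.33 in the WT stages, 8.80 in Erg KO, and 12.0, 11.4 and 5.98 in Rescue. At 181.2 kb (chr16:92644440-92645603) it was 13.4, 41.5 and 16.0 in WT, 12.8 in Erg KO, and 12.2, 14.9 and 17.3 in Rescue. At 110.4 kb (chr16:92715434-92716446) it was 8.53, 27.9 and 8.55 in WT, 3.48 in Erg KO, and 4.11, 6.90 and 4.13 in Rescue. In all of these WT proB was at least 2-fold above both WT neighbours and above Rescue proB, and the counting intervals did not meet.

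Other Runx1 regions were highest at the pre-proB stage, though not all were limited to it. The region 3.9 kb into the gene (chr16:92821396-92824330) measured 41.7 (36.3 to 47.6), 22.3 (18.6 to 26.7) and 15.3 (12.0 to 19.4) in the WT stages, 42.0 in Erg KO, and 39.7, 12.9 and 16.1 in Rescue. The region at 184.9 kb (chr16:92640975-92641545, intron 6) measured 27.1, 27.9 and 33.2 in WT, Erg KO and Rescue pre-proB, had no peak in WT proB or in either preB library, and measured 5.35 in Rescue proB. Of the 40 Runx1 regions, 2 had a peak in all 3 pre-proB libraries and in no later one, against 11.5% of all regions.

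A strong stage-dependent region of Runx3 lay 72.4 kb from the distal start site and beyond the end of the gene. The region (chr4:135192551-135193491) measured 88.4 (80.5 to 96.9) in WT pre-proB, 101 (92.5 to 110) in Erg KO and 96.7 (88.7 to 105) in Rescue pre-proB. WT proB and WT preB had no peak there, while Rescue proB had a peak of 24.1 (19.8 to 29.0) and Rescue preB 4.54 (2.89 to 6.83). The summit window (chr4:135192969-135193168, plus strand) holds the shorter core TGTGGT, in capitals, and no match to the full pattern.
Runx3 downstream region: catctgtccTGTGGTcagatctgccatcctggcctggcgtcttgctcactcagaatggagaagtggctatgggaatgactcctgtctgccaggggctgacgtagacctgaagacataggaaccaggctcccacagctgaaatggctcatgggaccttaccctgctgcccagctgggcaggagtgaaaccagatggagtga
A region 10.7 kb into Runx3 (chr4:135130979-135131957, intron 1) was also highest at pre-proB, at 66.7 (59.8 to 74.1), 17.7 (14.4 to 21.6) and 10.3 (7.60 to 13.7) in the WT stages, 61.7 in Erg KO, and 60.4, 31.6 (26.7 to 37.3) and 14.0 in Rescue. Of 13 Runx3 regions with a peak in both WT pre-proB and WT proB, 0 were 2-fold higher in WT proB and 4 were lower, against 14.8% and 15.0% over all regions. The flanking Runx3 regions at 61.4 and 85.7 kb did not differ 2-fold in any of the 7 comparisons. That at 61.4 kb (chr4:135181662-135182352) measured 40.8 in WT preB, the lowest library, and 48.4 in Rescue pre-proB, and that at 85.7 kb (chr4:135205861-135206960) measured 46.6 to 55.0 in the pre-proB and proB libraries and 70.8 and 69.3 in WT and Rescue preB.

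At Cbfb the difference between stages lay upstream of a promoter with a peak in all 7 libraries. A region 9.2 kb before the first start site (chr8:105161118-105161823) rose from 4.26 (2.71 to 6.42) in WT pre-proB to 34.3 (29.6 to 39.6) in WT proB and 49.3 (43.1 to 56.2) in WT preB. Erg KO and Rescue pre-proB measured 4.21 and 5.18, and Rescue proB and preB 44.3 (38.4 to 50.9) and 54.7 (48.3 to 61.7). The 3 pre-proB libraries lay together at the bottom and the 4 others did not overlap them. The summit window (chr8:105161367-105161566, plus strand) holds 1 match to CCCNNGGG, the letters used for the B-cell factor EBF, in capitals.
Cbfb upstream region: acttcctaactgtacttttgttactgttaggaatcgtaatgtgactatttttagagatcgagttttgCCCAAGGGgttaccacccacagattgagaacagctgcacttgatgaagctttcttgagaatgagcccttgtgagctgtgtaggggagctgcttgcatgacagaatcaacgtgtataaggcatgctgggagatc
The neighbouring promoter of the gene Gm3830, 5.2 kb upstream of Cbfb (chr8:105164946-105165705), followed the same course, with 3.88, 29.4 and 44.5 in WT, no peak in Erg KO or Rescue pre-proB, and 35.2 and 43.9 in Rescue proB and preB. The promoter of D230025D16Rik, 54.5 kb downstream of the Cbfb start site (chr8:105224440-105226212), stayed between 37.0 and 59.8.

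**Figure D4:**
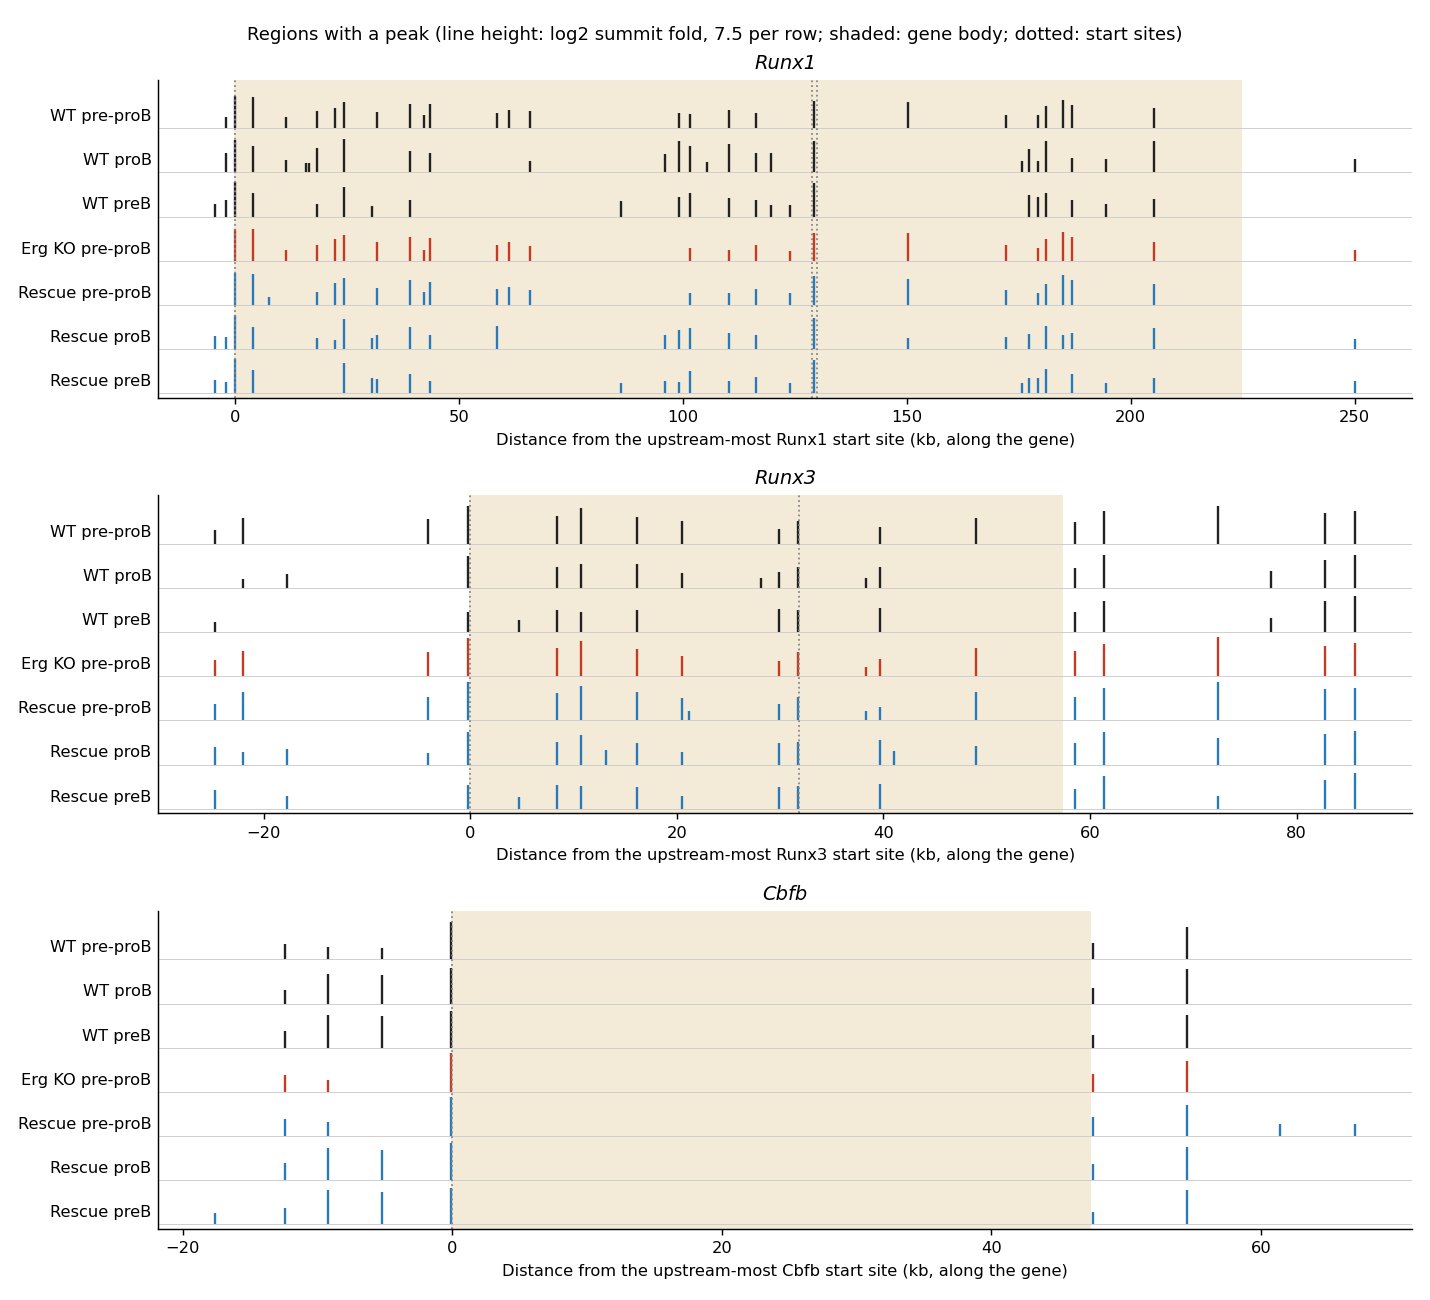
Regions with a peak at Runx1, Runx3 and Cbfb by library, at their distance in kb from the upstream-most start site of each gene, with line height proportional to the log2 level, the gene body shaded and start sites dotted. Runx1 carries lines throughout the gene in every row, the Runx3 line at 72.4 kb is absent from WT proB and WT preB, and the Cbfb line at 9.2 kb upstream is tall in the proB and preB rows alone.

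**Figure D5:**
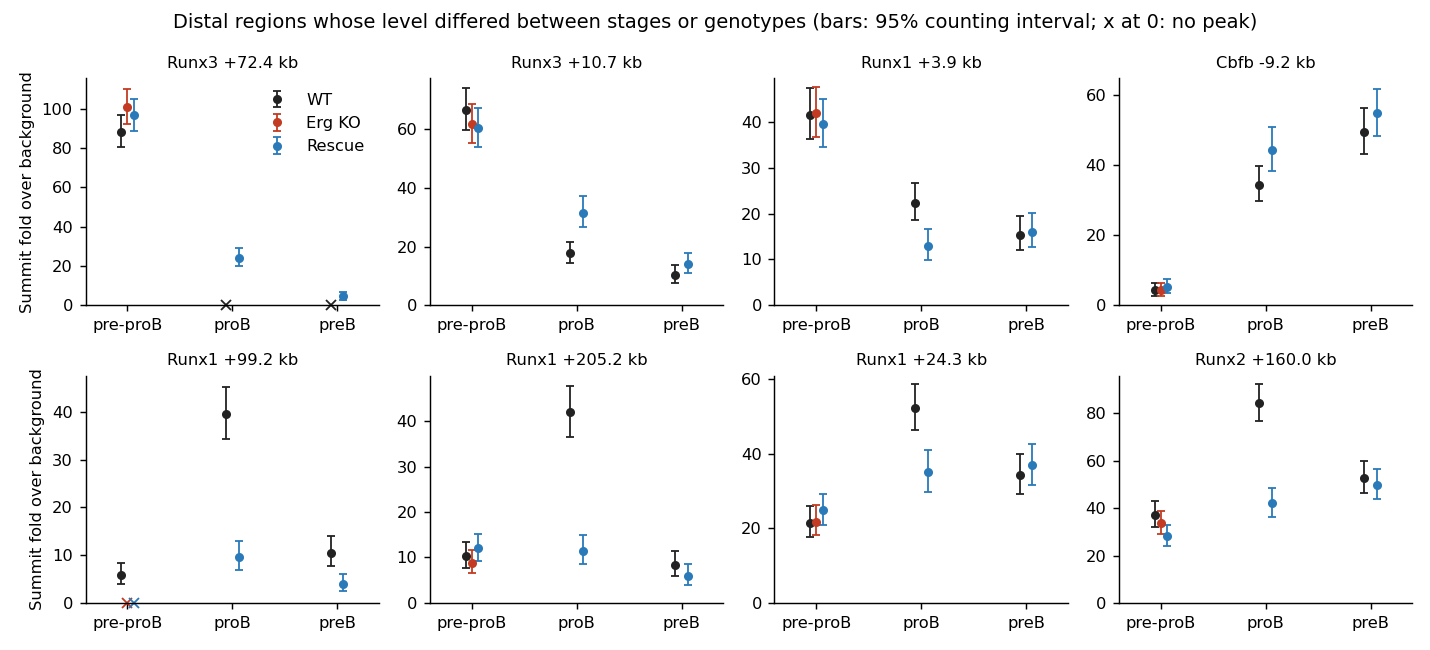
Level (summit fold over background, vertical axis from 0) of 8 regions outside the promoters by stage, named by their distance from the upstream-most start site, with WT in black, Erg KO in red, Rescue in blue, bars for the 95% counting interval and a cross at 0 where there was no peak. The upper row holds 3 regions that fall and 1 that rises from pre-proB to preB, and in the lower row WT proB is highest and Rescue proB lies below it at each of the 4 regions.

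The effect of losing Erg was addressed at the pre-proB stage. Of 104 regions at the 4 loci that both pre-proB lists, WT and Erg KO, held, none was 2-fold higher in Erg KO and 2 were lower, where 0.185% and 0.332% of all regions were. The 2 lower ones were the Runx1 region at 110.4 kb, at 8.53 (6.23 to 11.4) against 3.48 (2.14 to 5.40), and the Runx2 region at 153.1 kb (chr17:44661276-44662104), at 7.17 (5.08 to 9.86) against 3.11 (1.86 to 4.94). Both were also 2-fold lower in Rescue than in WT pre-proB, at 4.11 and 3.04. The Erg KO list lacked a counterpart for 9 of the 132 WT pre-proB peaks (6.82%, 3.63 to 12.5 by Wilson's 95% interval), against 6.88% over all peaks, and the best scored was the Runx1 region at 99.2 kb. The share depended on the settings, at 13.0% against 6.09% for peaks of −log10 q of 10 or more and 31.1% against 11.5% when the peaks had to overlap reciprocally by 50%. In the other direction, 38 of 149 Erg KO peaks (25.5%, 19.2 to 33.1) had no WT counterpart, against 13.6% over all peaks. Runx2 held 35 of these 38, and without it the share was 5.88% (3 of 51). The 3 best scored were Runx2 intronic regions at 137.9, 170.3 and 243.7 kb with levels of 4.58, 4.40 and 3.85 in Erg KO. In all, 22 Runx2 regions (21.0%) had a peak in Erg KO pre-proB alone, against 2.23% of all regions, although Erg KO had the second longest list and with lists of equal length the share of Erg KO peaks without a WT counterpart was 9.09% (7 of 77), against 8.34% over all peaks.

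From WT pre-proB to WT proB, 75 of 132 peaks (56.8%, 48.3 to 65.0) had no WT proB counterpart, against 34.1% over all peaks, and 62 of the 75 lay at Runx2. Without Runx2 the share was 24.1%, and with lists of equal length it was 42.5% against 33.5%. With the 38232 best peaks of each list it was 30.6%, below the 36.2% over all peaks. Across the 4 loci, 15 of 50 regions with both peaks were 2-fold higher in WT proB and 7 were lower, against 14.8% and 15.0% of all regions. Conversely 19 of 73 WT proB peaks (26.0%, 17.3 to 37.1) had no WT pre-proB counterpart, against 31.9%. From WT proB to WT preB, 27 of 73 peaks (37.0%, 26.8 to 48.5) were without a counterpart, against 26.7%, and 7 of 55 WT preB peaks (12.7%) were without one in WT proB, against 10.7%. Of 44 regions with a peak in both, 12 were 2-fold lower in WT preB, against 9.34% of all regions, and 2 were higher, against 4.46%. The 2 higher ones were a Runx3 region 29.9 kb into the gene (chr4:135150359-135150871), at 6.65 and 15.1, and a Runx1 region at 179.3 kb (chr16:92646628-92647075), at 3.88 and 9.86. Runx1 held 6 of the 12 lower regions and Runx2 held 5, of 8 with both peaks, among them those at 153.1 kb (26.4 and 11.8) and 141.9 kb (chr17:44671917-44673575, 25.3 and 11.2).

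Rescue and WT libraries of the same title were then compared. At pre-proB, 26 of 132 WT peaks (19.7%, 13.8 to 27.3) had no Rescue counterpart, against 5.88%, and 20 of 125 Rescue peaks (16.0%) had none in WT, against 15.6%. Runx2 held 22 of the 26, and without it the share was 7.41%. Of the Rescue peaks without a WT counterpart, the best scored were Runx2 regions at 243.7 kb (4.83) and 91.3 kb (4.29) and a flanking Cbfb region at 61.4 kb (4.11), all weak. No region was 2-fold higher and 2 of 92 were lower in Rescue, where 0.196% and 0.471% of all regions were. At proB, 19 of 73 WT peaks (26.0%) had no Rescue counterpart, against 20.6%, and 21 of 77 Rescue peaks (27.3%) had none in WT, against 19.8%. At this stage 10 of 52 regions were 2-fold lower in Rescue proB, against 6.67% of all regions, and 1 was higher, against 5.19%. Runx1 held 7 of the 10, of 18 regions with a peak in both, and Runx2 the other 3. The higher one was a Runx2 region at 150.7 kb (chr17:44663782-44664635), at 4.80 in WT proB and 2.07 times higher in Rescue proB. The Rescue proB peaks absent from WT proB were led by the Runx3 region at 72.4 kb and by a Runx1 region at 58.5 kb (chr16:92767273-92767831), at 14.5 in Rescue proB and 6.01, 6.05 and 6.79 in WT, Erg KO and Rescue pre-proB. At preB, 4 of 55 WT peaks (7.27%) had no Rescue counterpart, against 8.02%, and 15 of 67 Rescue peaks (22.4%) had none in WT, against 17.9%. Of 47 regions, 3 were 2-fold lower, against 1.26%, all at Runx1, and 1 was higher, against 2.20%. The lower ones lay at 99.2, 110.4 and 177.2 kb, and the higher one 24.7 kb upstream of Runx3 (chr4:135095736-135096157), at 3.29 in WT and 9.08 in Rescue preB. With the Rescue stages taken from the source names instead, 59.1% of WT pre-proB peaks and 67.1% of Erg KO peaks had no Rescue pre-proB counterpart, against 35.6% and 39.8% over all peaks.

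What a rearranged heavy chain changes in Erg-deficient pre-proB cells was addressed by Erg KO against Rescue pre-proB. Of 149 Erg KO peaks, 37 (24.8%, 18.6 to 32.3) had no Rescue counterpart, against 6.57% over all peaks, and 35 of them lay at Runx2, without which the share was 3.92% (2 of 51), while 8 of 125 Rescue peaks (6.40%) had none in Erg KO, against 9.81%. Of 102 regions with both, none was 2-fold higher in Rescue and 1 was lower, where 0.0589% and 0.0906% of all regions were, and it was a weak Runx2 region at 102.8 kb (chr17:44711823-44713359), at 5.50 and 2.86. These comparisons share libraries, so their counts are not independent.

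Binding patterns were about as frequent at the 4 loci as over all regions. In the 200 bases around each summit, TGTGGTT occurred in 20 of 179 regions (11.2%, 7.35 to 16.6) against 10.8% of all regions, the ETS pattern CAGGAAG in 15.1% against 14.8%, and CCCNNGGG in 11.7% against 9.24%, each searched on both strands. At Runx2, the ETS pattern was found in 5 of 79 regions open only in pre-proB libraries (6.33%, 2.73 to 14.0) and in 7 of 26 of the others (26.9%, 13.7 to 46.1), where the shares over all regions were 12.0% and 15.6%. In the 79 regions, TGTGGTT was found in 7.59% (3.53 to 15.6) and the core TGTGGT in 15.2% (8.91 to 24.7). Of all regions of that kind, 14.0% and 32.8% held them. In the 26 others the shares were 11.5% and 26.9%, against 9.85% and 23.5%. At Runx1, CCCNNGGG was found in 9 of 40 regions (22.5%, 12.3 to 37.5). The cause of these departures was not tested. A match is a description of the letters and not a bound site.

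The genes with which RUNX factors work were followed by promoter peaks over lists drawn from general knowledge. All 13 RUNX cofactor genes, among them the corepressors Tle1, Tle3 and Tle4, Sin3a and the acetyltransferase genes Ep300 and Crebbp, and all 6 partner transcription factor genes, such as Ets1, Fli1 and Tal1, had a promoter peak in all 7 libraries. In single libraries 61.4% to 65.5% of all coding genes had one. The share of coding genes with a promoter peak in all 7 libraries together was not counted. Of 15 genes described as RUNX targets, 9, 11 and 9 had one in the WT stages, 11 in Erg KO, and 13, 9 and 9 in Rescue. Spi1, which encodes PU.1, measured 22.9 in WT pre-proB and 68.1 and 97.5 in WT proB and preB, with 20.2 in Erg KO and 23.6, 69.3 and 93.7 in Rescue. Cd79a, a signalling chain of the B-cell receptor, measured 11.4, 80.1 and 81.3 in WT, had no peak in Erg KO, and measured 3.57, 59.0 and 75.5 in Rescue. Cebpa, a myeloid regulator, measured 59.3, 23.3 and 14.0 in WT, with 71.1 in Erg KO and 69.0, 35.4 and 34.7 in Rescue. The T-cell genes Cd4 and Bcl11b had a peak in 3 libraries each, at no more than 5.86 and 7.38, and Itgae and Il3 in none.

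In bulk libraries, more cells of a type and a more open locus per cell cannot be told apart, so markers of other cell types were read beside the pre-proB values of Runx2 and Runx3. Among 10 marker genes of plasmacytoid dendritic cells, Runx2 itself included, 10 had a promoter peak in every library except WT preB, with 9. The summed level without Runx2 ran from 518 to 606 in the pre-proB libraries and from 360 to 613 in the others. This sum covers members that went different ways. Siglech measured 101 to 113 in the pre-proB libraries and 18.6 to 54.5 in the others. Irf8 measured 59.7 to 69.0 and 28.1 to 38.4, and Bst2, Ccr9 and Tlr7 were also higher in every pre-proB library than in any other. Spib went the other way, at 48.1 to 55.9 and 83.3 to 174, as did Tcf4, while Ly6d and Flt3 overlapped. NK and innate lymphoid markers numbered 7 of 10 in each pre-proB library and 4 to 7 in the others, with summed levels of 189 to 214 and 69.9 to 118. Klrb1c measured 35.2 to 49.7 in the pre-proB libraries, 5.54 in WT proB and 3.12 in Rescue proB, with no peak at preB. Klrd1 measured 77.9 to 89.7 at pre-proB and 21.0 to 32.7 later. Eomes went the other way, at 4.07 to 6.05 and 8.12 to 15.7, and Tbx21 had peaks in later libraries only. Myeloid markers numbered 6 to 7 and 4 to 5, with 125 to 149 and 36.8 to 80.4, and Elane, Ctsg and S100a8 had no peak in any library. Cebpa measured 59.3 to 71.1 in the pre-proB libraries and 14.0 to 35.4 in the others, and Itgam and Ly6c2 were also higher at pre-proB. Csf1r went the other way, at 7.37 to 8.94 and 12.9 to 22.5, while Lyz2 overlapped. T-cell markers numbered 5 in WT pre-proB, 8 in Erg KO and Rescue pre-proB and 3 to 6 later. Their summed levels were 116 to 150 over the 7 libraries, and the members went different ways. Cd3d and Cd3e had no peak in any library. Cd3g measured 10.5, 13.0 and 15.0 in WT, Erg KO and Rescue pre-proB and 3.56 in Rescue proB, with no other later peak. Cd8a measured 19.2, 20.5 and 30.2 in the same pre-proB libraries and 6.90 in Rescue proB, with no other later peak. Gata3 and Tcf7 were higher in every proB and preB library than in any pre-proB library. Cd4, Bcl11b, Lck and Thy1 showed neither course. Stem and progenitor markers numbered 8 or 9 of 10, with 199 to 331, and erythroid markers 4 of 8 in every library, with 123 to 150. The study defines all 3 stages as negative for NK1.1 and CD11c, markers of NK cells and dendritic cells. The part of other cell types in the Runx2 and Runx3 values was not tested.

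Summed over all regions of a locus as level above background, Runx1 gave 325, 445 and 284 in the WT stages, 319 in Erg KO, and 323, 264 and 269 in Rescue. Runx2 gave 381, 283 and 155 in WT, 454 in Erg KO, and 366, 218 and 195 in Rescue. Runx3 gave 531, 268 and 255 in WT, 558 in Erg KO, and 569, 350 and 274 in Rescue, and Cbfb gave 148, 196 and 221, 145, and 166, 214 and 239. Among the 15703 to 15710 coding genes with at least 5 regions that were compared, the profiles most like that of Runx1 over the 7 libraries were those of Calcrl, Il20rb and Lrguk (Pearson r of log2 sums 0.991, 0.988 and 0.987). For Runx2 they were Ppargc1a, Tjp1 and Trpc7 (0.993, 0.992 and 0.991), for Runx3 Matn2, Slc7a5 and Tmem232 (0.999 each), and for Cbfb Prg3, Vwa1 and Ubxn11 (0.997 each). These correlations rest on 7 libraries that share stage and depth, they are the highest of all genes compared, and they carry no test.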

How the data were processed

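ATAC-seq of 7 sorted bone marrow populations, 1 library each, was analysed from the deposited peak lists. The labels name tagmentation with Tn5, whereas the study's methods name sonication. Per the labels and the submitters' processing notes, the authors used CASAVA 1.8.2, Bowtie2 against mm10, Picard and MACS2, and called peaks per library. The deposited columns hold a score, a summit fold over background (a ratio), and −log10 of p and q. From these, the summit pileup was recovered as a whole number (largest offset 0.0001 of a step), from which 95% Poisson intervals of the fold were computed, while shares were given Wilson intervals. Peaks overlapping by 1 bp or more between libraries counted as shared and were merged into regions. Levels were compared for regions with a peak in both libraries, centred on the median over all of them, and called at 2-fold. A promoter peak lay within 1000 bp of a start site. Peaks were counted per coding gene with 30 kb flanks. Python 3.11.15, numpy 2.4.6, pandas 2.3.3 and scipy 1.17.1 were used, and the calculations were tested on simulated data. There is 1 library per group, so no test between groups was made. Named regions were the promoters, the 3 other regions of highest mean level at each locus, and up to 3 regions of highest score among those differing in each comparison and direction. Named genes were the 3 with the profile most like each member's. The Runx2 region at 212.8 kb falls outside this rule. The members and gene lists were chosen with earlier results of these data known.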

Additional observations from a re-analysis of the deposited data

Results flagged for a closer look

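The number of peaks moved in opposite directions in WT and Rescue at 2 of the loci, each difference resting on 1 library per group and untested. At Runx1 it changed by -2 from WT pre-proB to WT proB and by 3 between the same Rescue stages. At Cbfb the same steps gave 1 in WT and -2 in Rescue, and from proB to preB the change was -1 in WT and 2 in Rescue.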

How the results depend on the processing

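Of 173 alternative values, 123 stayed within the counting interval of the reported value (or within 1.5 times a reported count) and 50 moved further. A reversal was looked for only in the ratios of Runx2 peak numbers, of which 0 fell below 1. Some shares that moved changed side against the share over all peaks. For WT pre-proB against WT proB, 56.8% against 34.1% became 30.6% against 36.2% with 38232 peaks per list. Gene bodies without flanks, promoter windows of 500 or 2500 bp and a 400 bp window for the RUNX pattern moved none. In 400 bp windows the ETS pattern was found in 22.9% of the regions (22.8% of all) and the EBF pattern in 17.9% (14.9%). The cause of a move was not tested. Shares below are of peaks at the 4 loci in the first library without a counterpart in the second, with the share over all peaks at the same setting in brackets.
Requiring 50% reciprocal overlap gave 31.1% (11.5%) for WT pre-proB against Erg KO and 38.9% (17.5%) for the reverse, 70.5% (47.1%) for WT pre-proB against WT proB and 46.6% (44.8%) for the reverse, 30.9% (21.1%) for WT preB against WT proB, 34.8% (11%) for WT against Rescue pre-proB and 31.2% (19.4%) for the reverse, 40.3% (28.4%) for Rescue against WT proB, and 38.9% (10.8%) for Erg KO against Rescue pre-proB and 27.2% (13.4%) for the reverse.
Cutting all lists to the shortest gave 9.09% (8.34%) for Erg KO against WT pre-proB, 42.5% (33.5%) for WT pre-proB against WT proB, 26.2% (18.6%) for WT proB against WT preB and 4.48% (8.63%) for Rescue against WT pre-proB. With 38232 peaks per list these 4 shares were 8.57% (6.05%), 30.6% (36.2%), 26.3% (17.1%) and 3.03% (6.10%), and WT against Rescue pre-proB gave 11.1% (5.68%), Rescue against WT proB 12.5% (17.1%), Rescue against WT preB 10.3% (9.61%), Erg KO against Rescue pre-proB 11.4% (4.79%) and the reverse 3.03% (5.02%).
With −log10 q of 10 or more in both lists, WT pre-proB against Erg KO gave 13.0% (6.09%) and the reverse 12.0% (10.4%), WT pre-proB against WT proB 44.2% (37.0%), WT proB against WT preB 26.4% (23.2%) and the reverse 4.76% (11.4%), and Erg KO against Rescue pre-proB 14.7% (4.58%). With 100 kb flanks, WT pre-proB against WT proB gave 47.3% (34.1%).
With the Rescue stage taken from the source name, WT against Rescue pre-proB gave 59.1% (35.6%), Rescue against WT proB 58.4% (40.2%), Rescue against WT preB 39.0% (27.1%), Erg KO against Rescue pre-proB 67.1% (39.8%) and the reverse 25.4% (26.9%).
The core TGTGGT was found in 22.9% of the regions (25.6% of all). At 1.5-fold, 8 regions differed between WT and Rescue pre-proB, 22 between WT and Rescue proB, 11 between WT and Rescue preB, and 8 between Erg KO and Rescue pre-proB, where leaving out the centring gave 0.
Alternatives chosen after seeing the data were the following. Without Runx2, Erg KO against WT pre-proB gave 5.88% (13.6%), WT pre-proB against WT proB 24.1% (34.1%), WT against Rescue pre-proB 7.41% (5.88%) and Erg KO against Rescue pre-proB 3.92% (6.57%). The ratio of Runx2 peak numbers, WT pre-proB over WT proB, was 3.90 and became 1.94 at the shortest list, 1 with 38232 peaks and 2.38 at −log10 q of 10 or more. The Rescue ratio was 3.38 and became 1.37 and 1.17 at the shorter lists.
No paired analysis was possible because each group has 1 library, and for the same reason no replicate could be left out. A peak below 10 to 12 fragments at the summit could not be called, which limits every statement on an absent peak.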
